A study of Mus musculus with 80 samples.

Results

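Adenine base editing at the 5′ splice site of *Ptbp1* exon 1 was compared between *Sp*Cas-ABE8e and *Sp*Cas-ABEmax in Hepa1-6 cells, a hepatoma line from a C57L mouse. The members are set by sgRNA, Cas9 variant and editor as the sample labels give them, and are 9 of the 80 samples of the series. They comprise 3 samples with sgRNA1 and *Sp*Cas-ABE8e, 3 samples with sgRNA1 and *Sp*Cas-ABEmax, and 3 control samples that carried sgRNA1 without an editor. The labels of this sgRNA write ABE without a version beside ABE8e, and ABE is read here as ABEmax, the name used at other sites of the series. All samples were lipofected with 400 ng of DNA and 0.5 µl of Lipofectamine 2000, and the target was then amplified by PCR from genomic DNA and deep sequenced. The 3 samples of a group are biological replicates per the series description, from a single cell line with no selection for transfected cells stated in the labels. A lower editing rate can therefore reflect fewer cells that received the editor or less editing per cell, which cannot be told apart. The tables hold 1415, 1880 and 3644 reads for *Sp*Cas-ABE8e, 3038, 599 and 1185 for *Sp*Cas-ABEmax, and 1741, 2003 and 1516 for the controls.

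PTBP1 is an RNA-binding protein that represses neuronal exons in non-neuronal cells. An adenine base editor joins a Cas9 that nicks 1 strand to a deaminase that turns adenine into inosine, which is read as guanine, on the strand that the sgRNA displaces. ABEmax is an earlier form of this deaminase and ABE8e a later one evolved for faster deamination. At a 5′ splice site the intron starts with GT, and editing the adenine opposite the T turns this into GC. GC is also found at a small minority of natural introns.

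In the mouse build GRCm39, *Ptbp1* (ENSMUSG00000006498.18) spans 79690261 to 79700605 on chromosome 10 and is read from the plus strand. Exon 1 of the transcript ENSMUST00000172282.8 runs from 79690261 to 79690555, and 24 of the 30 annotated transcripts use its 5′ splice junction. The protospacer lies on the minus strand from 79690542 to 79690561 beside the PAM CGG. Position 1 is the 5′ end of the protospacer, position 0 is the base before it, and a change such as A5G is an adenine at position 5 of the sgRNA strand read as guanine. The protospacer below has the target adenine in capitals, and the gene strand lines have the first 2 bases of the intron in capitals, before and after the edit.
protospacer: acttAcccgtccatggcaca
gene strand, unedited: catggacggGTaagtcct
gene strand, A5G: catggacggGCaagtcct

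The target adenine A5 is at 79690557, opposite the second base of the intron. The protospacer holds 4 other adenines, which are bystanders. A1 at 79690561 is opposite intron base 6. A13 at 79690549 lies in the start codon, where A13G gives M1T, and A18 at 79690544 and A20 at 79690542 lie in the 5′ UTR. Of the 8 cytosines, C6 pairs with the first base of the intron, and C7, C8, C11 and C12 lie in the coding part of exon 1, where C7T gives G3D, C8T gives G3S, C11T gives D2N and C12T gives M1I. One protospacer thus covers both the splice site and the start codon.

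The window alleles that made up at least 0.5% of reads on average in any group are shown on the sgRNA strand with the PAM, with changed bases in capitals, because the comparison turns on them.
unchanged: acttacccgtccatggcacacgg
A5G: acttGcccgtccatggcacacgg
A1G+A5G: GcttGcccgtccatggcacacgg
A5G+A13G: acttGcccgtccGtggcacacgg
A5G+C7T: acttGcTcgtccatggcacacgg

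The tables hold no reads of the editor plasmids, so the deaminase of each sample rests on its label. Editing of the other protospacer adenines was higher in the samples labelled ABE8e when the same sgRNA was used with *Sp*G, a Cas9 variant with a relaxed PAM (2.32% of reads, compared with 0.229% for ABEmax), and when *Sp*Cas was used at exon 7 (82.5% and 31.5%) and exon 8 (22.0% and 2.97%), and lower in them at exon 1 with *Sp*Cas. A13G, one of these edits at exon 1, averaged 1.34% in the samples labelled *Sp*Cas-ABEmax and 1.58% in those labelled *Sp*G-ABE8e, and 0.0779% in those labelled *Sp*Cas-ABE8e and 0.0893% in those labelled *Sp*G-ABEmax. A1G did not pair the groups in this way, with means in the same order of 1.83%, 0.258%, 0.271% and 0.0882%. Means of A18G were 0.404%, 0.524%, 0.171% and 0.0518%. For C7T, a cytosine change, they were 0.578%, 0.0167%, 0.0183% and 0.0259%. Mean target editing at exon 1 was higher in the samples labelled ABE8e with both Cas9 variants. An exchange of the *Sp*Cas-ABE8e and *Sp*Cas-ABEmax labels was not tested, and it would turn the sign of every difference between these editors given below.

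The samples labelled *Sp*Cas-ABE8e had more target editing than those labelled *Sp*Cas-ABEmax, and the latter had more edits at the other adenines. A5G was read in 43.3%, 48.2% and 42.1% of reads with *Sp*Cas-ABE8e, with Wilson 95% intervals of 40.7 to 45.8%, 46.0 to 50.5% and 40.5 to 43.7%. With *Sp*Cas-ABEmax it was read in 38.9%, 31.9% and 31.1%, with intervals of 37.2 to 40.7%, 28.3 to 35.7% and 28.5 to 33.7%. These intervals, and the limits given below for a count of 0, cover counting error only. The PCR reads carry no molecular identifiers, so several reads may stem from 1 molecule. The controls showed 1, 1 and 2 such reads, or 0.0574%, 0.0499% and 0.132%. The lowest *Sp*Cas-ABE8e sample lay above the highest *Sp*Cas-ABEmax sample, by 3.13 percentage points. The intervals of these samples overlapped (40.5 to 43.7% and 37.2 to 40.7%).

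Mean target editing was 44.5 ± 3.28% (s.d., n = 3) with *Sp*Cas-ABE8e and 34.0 ± 4.33% (n = 3) with *Sp*Cas-ABEmax, a difference of 10.6 percentage points and a ratio of 1.31. Single pairs of samples differed by 3.13 to 17.2 percentage points. The two-sided exact permutation test over samples gave p = 0.1, the smallest that 3 samples against 3 allow, so no comparison of a pair of groups here can pass 0.05. Against the controls (0.0798 ± 0.0453%), the differences were 44.4 percentage points for *Sp*Cas-ABE8e and 33.9 for *Sp*Cas-ABEmax, each with the same exact p of 0.1. Both comparisons use the same 3 control samples. Over the 11 tests of target editing, bystander editing, indels, clean reads and cytosine changes, the adjusted p was 0.11 wherever the exact p was 0.1.

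Bystander editing, the percentage of reads in which at least 1 of the 4 other adenines became guanine, went the other way. It was seen in 3, 15 and 22 reads with *Sp*Cas-ABE8e, or 0.212%, 0.798% and 0.604%. With *Sp*Cas-ABEmax it was seen in 136, 19 and 37 reads, or 4.48%, 3.17% and 3.12%. The intervals ran from 0.0721 to 1.31% over the *Sp*Cas-ABE8e samples and from 2.04 to 5.27% over the *Sp*Cas-ABEmax samples, so no intervals of the 2 editors overlapped. The means were 0.538 ± 0.298% and 3.59 ± 0.768% (n = 3 each), 6.68 times as high with *Sp*Cas-ABEmax (difference -3.05 percentage points, *Sp*Cas-ABE8e minus *Sp*Cas-ABEmax, exact permutation p = 0.1). The control mean was 0.0744%, below every edited sample.

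The difference lay mainly at A1 and A13, on either side of the target. A1G was read in 0.141%, 0.426% and 0.247% with *Sp*Cas-ABE8e and in 2.30%, 1.84% and 1.35% with *Sp*Cas-ABEmax, so that the means of 0.271% and 1.83% stood 6.75-fold apart. The controls had 1 such read in all, in replicate 2. A13G, the start codon change, was read in 1, 1 and 4 reads with *Sp*Cas-ABE8e (0.0707%, 0.0532% and 0.110%) and in 51, 5 and 18 reads with *Sp*Cas-ABEmax (1.68%, 0.835% and 1.52%). The *Sp*Cas-ABE8e samples overlapped the controls at A13G, where control replicate 1 had 0.0574%, and the *Sp*Cas-ABEmax samples did not. At both A1 and A13 the samples of the 2 editors did not overlap (exact permutation p = 0.1, adjusted p = 0.167 over the 5 adenines).

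The 2 adenines of the 5′ UTR separated the editors less. A18G was read in 0, 5 and 9 reads with *Sp*Cas-ABE8e, or 0%, 0.266% and 0.247%, where the count of 0 allows up to 0.212%. With *Sp*Cas-ABEmax it was read in 19, 2 and 3 reads, or 0.625%, 0.334% and 0.253%, which overlaps *Sp*Cas-ABE8e (exact permutation p = 0.2, adjusted p = 0.25). A20G, next to the PAM, was read in 1 read over all *Sp*Cas-ABE8e samples, 3 over all *Sp*Cas-ABEmax samples and 1 over the controls, and no difference was detectable at this depth (exact permutation p = 0.4). Among the 5 adenines, 1 was higher and 2 were lower with *Sp*Cas-ABE8e in every sample by the share of reads with any change or deletion, against 2.5% and 7.5% of the 40 window positions.

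**Figure D1:**
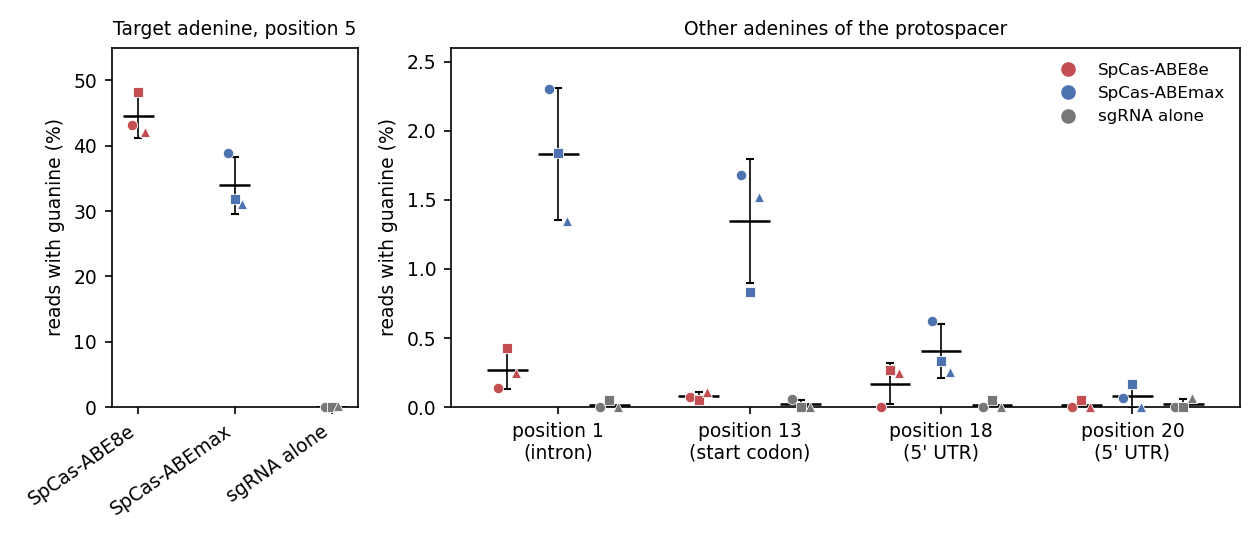
Percent of reads with guanine at each protospacer adenine, the target at position 5 on the left and the other 4 on the right with a smaller scale; points are samples (circle, square and triangle for replicates 1, 2 and 3), horizontal lines are means and error bars are s.d. (n = 3). At position 5 the red points of SpCas-ABE8e lie above the blue points of SpCas-ABEmax, and at positions 1 and 13 below them.

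Most bystander edits sat on reads that also carried the target edit. With *Sp*Cas-ABEmax, 95 of 97 A1G reads and 72 of 74 A13G reads were also A5G, and with *Sp*Cas-ABE8e 16 of 19 and 4 of 6. For A18G this held for 19 of 24 reads with *Sp*Cas-ABEmax and 13 of 14 with *Sp*Cas-ABE8e, and for A20G for 2 of 3 and 1 of 1. The share of bystander reads that were also A5G was lowest in *Sp*Cas-ABE8e replicate 3, at 77.3%, and *Sp*Cas-ABEmax replicate 2, at 78.9%. Among target-edited reads, a bystander edit was found in 1.05% on average with *Sp*Cas-ABE8e and in 9.57% with *Sp*Cas-ABEmax, 9.14 times as often. Within these reads A1G reached 0.533% and 5.14%, and A13G 0.120% and 3.74%, respectively. Reads with 2 or more edited adenines numbered 3, 14 and 17 with *Sp*Cas-ABE8e and 131, 15 and 36 with *Sp*Cas-ABEmax. Reads with 3 edited adenines numbered 6, all in *Sp*Cas-ABEmax replicate 1, of which 5 carried A1G+A5G+A13G, and the controls had no read with more than 1 edited adenine.

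The allele with A5G alone was the leading edited allele with both editors. It made up 42.5%, 46.7% and 40.9% of reads with *Sp*Cas-ABE8e and 33.0%, 28.4% and 26.9% with *Sp*Cas-ABEmax. The unchanged window made up 55.6%, 50.5% and 56.3% in the *Sp*Cas-ABE8e samples, 58.9%, 66.3% and 67.2% in the *Sp*Cas-ABEmax samples, and 98.2%, 98.3% and 98.5% in the controls. A1G+A5G followed with 0.141%, 0.426% and 0.165% against 2.11%, 1.67% and 1.27%, and A5G+A13G with 0.0707%, 0% and 0.0823% against 1.45%, 0.668% and 1.43%. A5G+C7T made up 0.494%, 0.501% and 0.506% of reads with *Sp*Cas-ABEmax and was read in no *Sp*Cas-ABE8e and no control sample. The next alleles below the 0.5% rule were A5G+A18G, with means of 0.125% and 0.248%, and T14G alone, with 0.114% and 0.0947%. T14G is a change in the start codon that was most frequent in the controls, at 0.287%, 0.300% and 0.198%.

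The clean share, the percentage of target-edited reads with no other change in the protospacer, was 98.9%, 97.4% and 97.8% with *Sp*Cas-ABE8e. It was 85.7%, 89.0% and 87.2% with *Sp*Cas-ABEmax. The intervals ran from 96.1 to 99.4% over the *Sp*Cas-ABE8e samples and from 83.4 to 92.7% over the *Sp*Cas-ABEmax samples, and the groups did not overlap. The means of 98.0 ± 0.774% and 87.3 ± 1.65% (n = 3 each) differed by 10.7 percentage points (exact permutation p = 0.1). Clean reads were 43.6 ± 3.01% of all reads with *Sp*Cas-ABE8e and 29.6 ± 3.32% with *Sp*Cas-ABEmax, a ratio of 1.47, compared with 1.31 for all target-edited reads.

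Of the 237 target-edited reads with *Sp*Cas-ABEmax that were not clean, 179 carried only further adenine edits, 3 a further adenine edit with another substitution, 39 a cytosine change without a further adenine edit, 9 another substitution and 7 an indel. Of the 65 such reads with *Sp*Cas-ABE8e, the same classes held 30, 3, 17, 7 and 8. Further adenine edits thus made up most of the additional changes with *Sp*Cas-ABEmax.

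Cytosines changed more often with *Sp*Cas-ABEmax, chiefly at C7, the last base of exon 1, which is 2 bases from the target. Reads with any protospacer cytosine read as another base made up 0.424%, 0.426% and 0.714% in the *Sp*Cas-ABE8e samples, 1.02%, 1.00% and 1.18% in the *Sp*Cas-ABEmax samples, and 0.345%, 0.0999% and 0.396% in the controls. The means of the editors were 0.521 ± 0.167% and 1.07 ± 0.0988% (n = 3 each), and the groups did not overlap (difference -0.547 percentage points, exact permutation p = 0.1). C7T was read in 17, 4 and 6 reads with *Sp*Cas-ABEmax, or 0.560%, 0.668% and 0.506%, and in 0, 0 and 2 reads with *Sp*Cas-ABE8e, where the counts of 0 allow up to 0.212% and 0.160%. The controls had 2, 1 and 3 such reads, so *Sp*Cas-ABE8e did not exceed them. C6T, at the G of the splice site, was read in 9, 2 and 2 reads with *Sp*Cas-ABEmax, in 0, 0 and 4 with *Sp*Cas-ABE8e and in 2, 1 and 2 of the controls. With *Sp*Cas-ABEmax, 24 of the 27 C7T reads and 10 of the 13 C6T reads also carried A5G. C-to-T changes at any cytosine averaged 0.147% in the *Sp*Cas-ABE8e samples, 0.778% in the *Sp*Cas-ABEmax samples and 0.160% in the controls.

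Over the whole window of 40 bases, the percentage of reads with any changed or deleted base at a position separated the 2 editors at 4 positions. It was higher with *Sp*Cas-ABE8e in every sample at position 5, and lower at positions 1, 7 and 13. When substituted bases alone were counted, positions 3, 6 and 18 also separated, so that 15% of positions were lower and 2.5% higher with *Sp*Cas-ABE8e. The smallest adjusted p over the 40 positions was 0.69 (exact permutation test). Without *Sp*Cas-ABEmax replicate 2, the sample of 599 reads, the groups did not overlap at 37 positions.

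Against the controls, any change or deletion was higher in every *Sp*Cas-ABE8e sample at 29 positions (72.5%), which include all 5 adenines, and in every *Sp*Cas-ABEmax sample at 13 positions (32.5%), which also include all 5. Among reads without an indel, the groups did not overlap at 5 positions with *Sp*Cas-ABE8e and 8 with *Sp*Cas-ABEmax. Counting substituted bases only, 9 positions (22.5%) were higher with *Sp*Cas-ABE8e, among them 3 of the 5 adenines, at positions 1, 5 and 13. At A13 this count includes A-to-C, read in 0.141%, 0.0532% and 0.137% with *Sp*Cas-ABE8e and in no control. A13G alone averaged 0.0779% there and overlapped the controls. With *Sp*Cas-ABEmax 7 positions (17.5%) were higher, among them 4 of the 5 adenines, at positions 1, 5, 13 and 18, together with C6, C7 and G9. With each editor 1 position (2.5%) was lower than in every control, C30 with *Sp*Cas-ABE8e and C11 with *Sp*Cas-ABEmax. Without *Sp*Cas-ABEmax replicate 2, any change or deletion separated *Sp*Cas-ABEmax from the controls at all 40 positions.

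The other positions above every control by more than 0.2 percentage points, by any change or deletion, can be named. With *Sp*Cas-ABE8e they were C-8, C-6, G-5, G0, C2, T3, T4, C8, G9, T10, C11, C12, G15, G16, C17 and C19, with means of 0.242% to 0.467%, and with *Sp*Cas-ABEmax G-9, T3, T4, C6, C7, C8, G9 and G15, with means of 0.283% to 1.28%. Deletions alone, primer-holding reads left out, averaged 0.126% to 0.222% and 0.206% to 0.539% there. By substituted bases only C-6, G-5 and C17, and C6, C7 and G9, respectively, stayed above every control. With *Sp*Cas-ABE8e, C-6 read as G and G-5 read as C had the same share in each sample (0.0707%, 0.160% and 0.247%). Primer-holding reads averaged 0.183% in that group. The 5 adenines of the window outside the protospacer were read as guanine in 0.0802% of reads in the *Sp*Cas-ABE8e samples, 0.0329% in the *Sp*Cas-ABEmax samples and 0.146% in the controls, with rows that hold primer sequence left out, so the controls were highest. The count of 29 positions with *Sp*Cas-ABE8e fell to 17 without primer-derived reads, and the groups did not overlap at 2 positions when alleles of at least 2 reads alone were kept, and at 4 with *Sp*Cas-ABEmax.

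**Figure D2:**
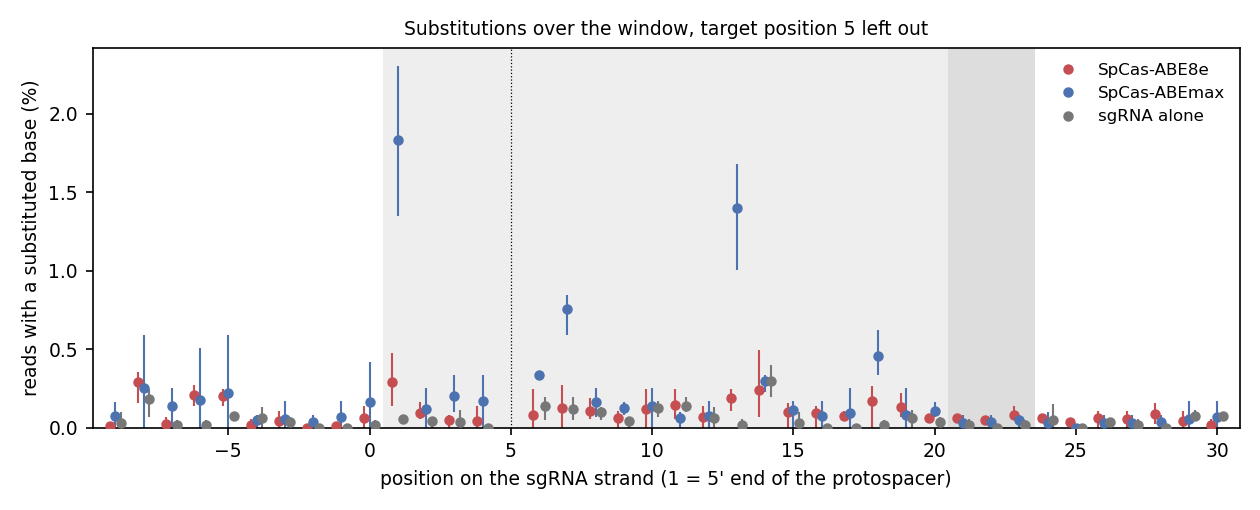
Percent of reads with a substituted base at each window position. Points are means of 3 samples, and vertical lines run from the lowest to the highest sample. The light band is the protospacer and the darker band the PAM. The dotted line marks position 5, whose values are left out because they reach 48.4%. The blue points of SpCas-ABEmax rise above the others at positions 1, 6, 7, 13 and 18, and at most other positions the ranges of the groups overlap.

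Seen by function, the first 2 bases of the intron were changed or deleted in 45.0 ± 3.28% of reads in the *Sp*Cas-ABE8e samples, 34.6 ± 4.41% in the *Sp*Cas-ABEmax samples and 0.280 ± 0.162% in the controls (n = 3 each). The start codon was changed or deleted in 0.565%, 0.638% and 1.04% with *Sp*Cas-ABE8e and in 2.67%, 1.17% and 2.78% with *Sp*Cas-ABEmax. The control mean was 0.399%, which includes T14G. Both were affected on the same read in 0.492 ± 0.216% with *Sp*Cas-ABE8e and 1.96 ± 1.12% with *Sp*Cas-ABEmax, where the samples of the 2 editors overlapped (exact permutation p = 0.2). The tables give DNA sequence only, and neither splicing nor protein was measured in these samples.

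Indels were rare with both editors. They were found in 6, 15 and 30 reads in the *Sp*Cas-ABE8e samples, or 0.424%, 0.798% and 0.823%, and in 33, 2 and 16 reads in the *Sp*Cas-ABEmax samples, or 1.09%, 0.334% and 1.35%. The controls had 0, 2 and 0 reads, where the counts of 0 allow up to 0.172% and 0.198%. The means were 0.682 ± 0.224% and 0.923 ± 0.527% (n = 3 each), and the groups overlapped (difference -0.242 percentage points, pairs of samples from -0.926 to 0.489, exact permutation p = 0.5). The difference was -0.537 without *Sp*Cas-ABEmax replicate 2, where the groups no longer overlapped (exact permutation p = 0.1), and -0.0283 without its replicate 3. Every edited sample lay above every control (exact permutation p = 0.1 for each editor). Most indel alleles were single reads, and with alleles of at least 2 reads alone the differences from the controls were 0.0733 percentage points for *Sp*Cas-ABE8e and 0.245 for *Sp*Cas-ABEmax (exact permutation p = 0.4 each). The interval of *Sp*Cas-ABEmax replicate 2, which has the fewest reads of the 9 samples, ran from 0.0916 to 1.21%, compared with 0.775 to 1.52% in replicate 1 and 0.833 to 2.18% in replicate 3.

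The kinds of indel can be given as counts of reads. Of the 51 indel reads with *Sp*Cas-ABE8e, 14 held the start of the forward PCR primer inside the window. Of the others, 15 had an insertion and 22 a deletion alone. Of the 51 with *Sp*Cas-ABEmax, 7 held the primer, all in replicate 3, 7 had an insertion and 37 a deletion alone. Primer-holding reads made up 0.141% to 0.247% of reads in the *Sp*Cas-ABE8e samples, 0% to 0.591% in the *Sp*Cas-ABEmax samples and 0% to 0.0499% in the controls. How they arose was not tested. Without them the indel means were 0.499% and 0.727%.

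Most insertion reads repeated the neighbouring sequence. Of the 18 reads with an insertion of 3 or more bases over both editors, 14 were exact tandem duplications and 3 more differed from one by 1 base. Of the 22 insertion reads, 13 had the added bases aligned after position 10. Examples are shown on the sgRNA strand with the added bases in capitals, to show the repeat. All 3 come from *Sp*Cas-ABE8e, the first in 2 reads and the others in 1 read each, and the last also carries A5G.
4 added bases: ggcaggacttaCCCGcccgtccatggca
8 added bases: acttacccgtCCATGCGTccatggcaca
11 added bases: ttgcccgtCCATGGCCCGTccatggcac

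Deletions ranged from a single base to the whole window. Of the 59 deletion reads over both editors, 31 lay inside the window, 18 reached one edge of it and 10 had lost all of it, and 20 had lost 10 or fewer bases. The 3 indel alleles with the most reads were the loss of the whole window of 40 bases, in 10 reads (4 with *Sp*Cas-ABE8e and 6 with *Sp*Cas-ABEmax), the loss of positions -9 to 20, in 6 reads (2 and 4), and the loss of positions 3 to 25, in 3 reads, all from *Sp*Cas-ABEmax replicate 3. For the first 2, the deletion reaches the edge of the window, and its length beyond the window was not examined here. The share of reads with a base deleted was highest at positions 9 and 10 with *Sp*Cas-ABEmax, at 0.539% on average, and at position 10 with *Sp*Cas-ABE8e, at 0.222%. At position 17, beside the predicted nick, the shares were 0.402% and 0.126%. Of the deletion reads that still held position 5, 6 of 7 with *Sp*Cas-ABE8e and 3 of 10 with *Sp*Cas-ABEmax carried A5G.

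**Figure D3:**
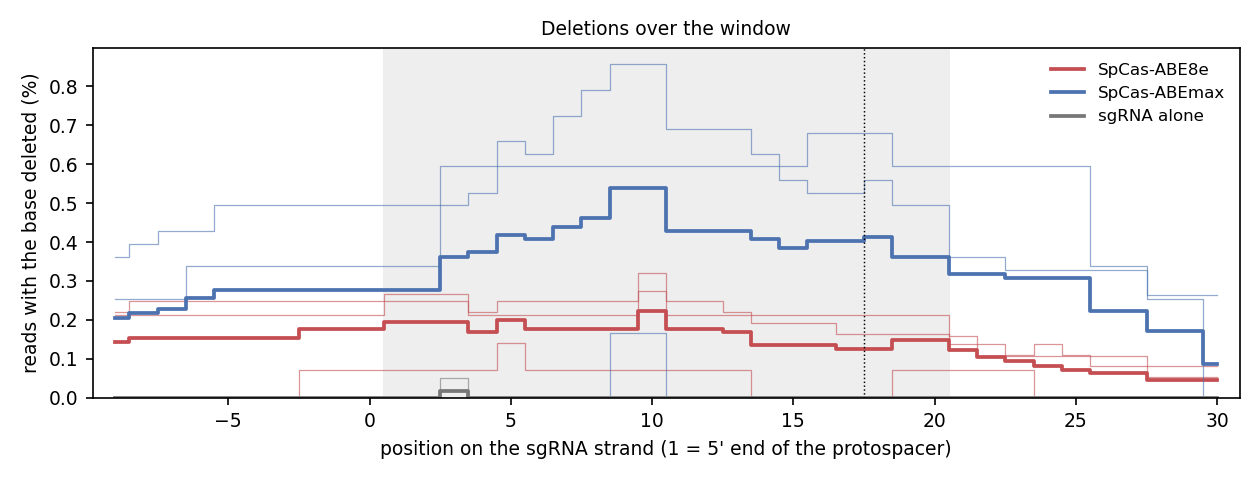
Percent of reads with each window position deleted, insertions and primer-holding reads left out; thick lines are means of 3 samples, thin lines single samples, the band is the protospacer and the dotted line the predicted nick, 3 bases from the PAM. The mean of SpCas-ABEmax reaches 0.539% at positions 9 and 10, and 1 of its samples stays near 0 over most of the window.

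The same sgRNA was also used with *Sp*G, and there the samples labelled ABE8e and ABEmax differed in the opposite direction at the bystanders. *Sp*G-ABE8e edited the target in 18.4%, 24.1% and 32.6% of reads and *Sp*G-ABEmax in 18.7%, 8.02% and 15.6%, so these groups overlapped. The gain from ABE8e at the target was 10.6 percentage points with *Sp*Cas and 10.9 with *Sp*G, a difference in gain of -0.319 (exact permutation p = 0.985 over 400 arrangements, adjusted p = 0.985 over 3 differences in gain). The *Sp*G means were lower, at 25.0% and 14.1%, and in log odds of target editing the difference in gain was -0.294 (exact permutation p = 0.61). Bystander editing averaged 2.32% in the ABE8e samples of *Sp*G and 0.229% in its ABEmax samples, 2.09 percentage points higher with ABE8e, against 3.05 lower in *Sp*Cas. That is a difference of -5.14 between the Cas9 variants (exact permutation p = 0.005, the smallest of 400 arrangements, adjusted p = 0.0167 over 10 measures chosen after their values were seen).

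A13G showed this most clearly. With *Sp*G-ABE8e it was read in 1.46%, 1.35% and 1.92%, and *Sp*G-ABEmax gave 0.190%, 0% and 0.0778%, and the difference between the variants was -2.75 percentage points (exact permutation p = 0.005, adjusted p = 0.0167). The corresponding difference was -1.73 for A1G and -0.706 for A18G (exact permutation p = 0.01, adjusted p = 0.02 each) and 17.7 for the clean share (exact permutation p = 0.005, adjusted p = 0.0167). For C7T it was -0.550 (exact permutation p = 0.08, adjusted p = 0.1). The part of the labels in this pattern was not tested.

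**Figure D4:**
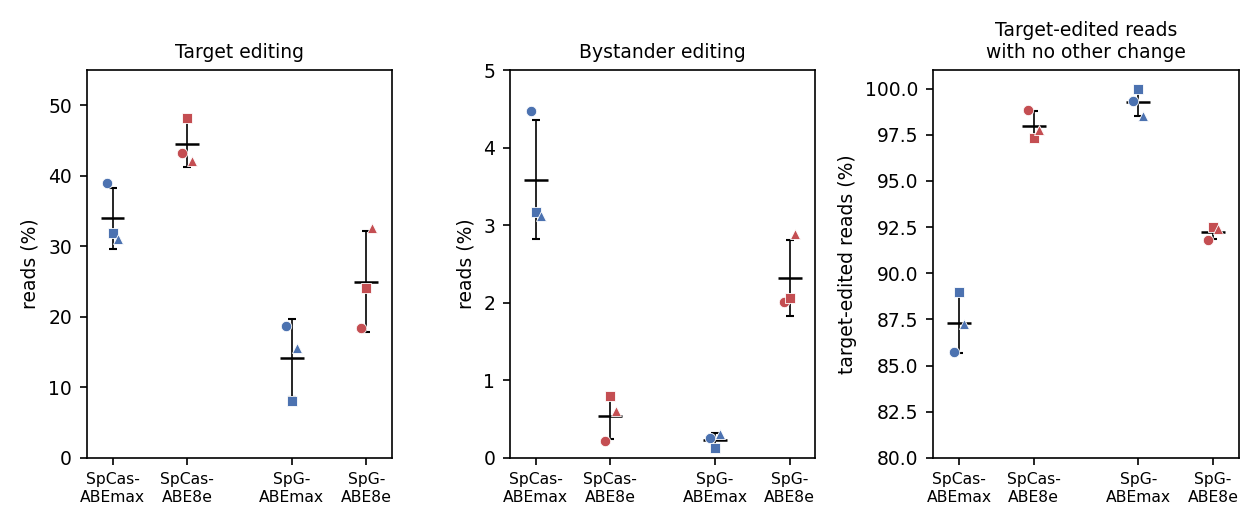
Target editing, bystander editing and the clean share at exon 1 for SpCas and SpG with ABEmax (blue) and ABE8e (red); points are samples, horizontal lines means and error bars s.d. (n = 3), and the axis of the clean share starts at 80%. Mean target editing is higher with ABE8e in both variants, with overlapping samples in SpG, whereas bystander editing is higher with ABEmax in SpCas and with ABE8e in SpG.

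At the other 2 sites with an NGG PAM and *Sp*Cas editors, *Sp*Cas-ABE8e had the higher bystander editing and the lower clean share. The clean share averaged 4.01% with *Sp*Cas-ABE8e and 72.4% with *Sp*Cas-ABEmax at exon 7, and 71.3% and 93.8% at exon 8. Cytosine changes averaged 0.460% and 0.600% at exon 7, and 2.37% and 0.649% at exon 8. At the exon 7 5′ splice site bystander editing was 82.5% in the *Sp*Cas-ABE8e samples, of which 1 table has another format, and 31.5% in the *Sp*Cas-ABEmax samples, and at exon 8 it was 22.0% and 2.97%. Their bystander adenines lie at other positions than those of exon 1, apart from A20 at both sites and A1 at exon 8. Levels of bystander editing are therefore not comparable with exon 1. A1G at exon 8 averaged 2.30% with *Sp*Cas-ABE8e and 0.438% with *Sp*Cas-ABEmax. A20G averaged 0.0352% and 0.0154% at exon 8, and 0.0247% and 0.0225% at exon 7. The gain in target editing of 10.6 percentage points at exon 1 stood beside 49.9 at exon 7, a difference of -39.4 (exact permutation p = 0.1, adjusted p = 0.3), and 12.2 at exon 8, a difference of -1.67 (exact permutation p = 0.83, adjusted p = 0.985).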

How the data were processed

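Per the paper's methods, the authors amplified the target by PCR from genomic DNA, sequenced it on an Illumina MiSeq and aligned reads to the amplicon with CRISPResso2, whose version is not given in the sources used here. The authors deposited, for each window allele, a count of reads without normalization and the percent of reads, which was checked to be the count over the table's total. Numbers of inserted and deleted bases per allele, as deposited (unit other), served as an alternative only. They are not limited to the window of 40 bases, and rare alleles and sequencing errors are kept, so low shares are read beside the controls. Samples were grouped by their labels. Shares were computed from the counts, with no allele left out. Groups were compared by two-sided exact permutation tests over samples, and differences in gain by exchanging deaminase labels within each pair of groups, with Benjamini-Hochberg adjustment within families. Reads holding the first 10 bases of the forward primer were called primer-derived. Named were all protospacer adenines, other positions where every sample of an editor lay above every control with a mean difference above 0.2 percentage points, alleles of at least 0.5% on average in a group, and the 3 indel alleles with the most reads. The sequences were matched to GRCm39 with GENCODE annotation, since no build is given for the amplicons. Python 3.11.15, numpy 2.4.6, scipy 1.17.1 and matplotlib 3.10.9 were used. The scripts were tested on simulated data before use. No tables were identical. Over alleles, the reads of 3 of the 9 pairs of samples of 1 group differed beyond sampling noise (chi-square test). Since the series description calls the samples biological replicates, each was counted. The members and lists were chosen with earlier results of these data known.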

Additional observations from a re-analysis of the deposited data

Results flagged for a closer look

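The difference between samples labelled ABE8e and those labelled ABEmax at exon 1 was not the same with *Sp*Cas and *Sp*G at several readouts. The test exchanged the labels of the deaminases inside each variant (400 arrangements, 10 measures chosen after their values were seen). Whether the *Sp*Cas samples carry the right labels was not tested. Bystander editing differed by -5.14 percentage points between the variants (ABE8e minus ABEmax, *Sp*Cas minus *Sp*G), with all 9 pairs of samples negative in *Sp*Cas and all 9 positive in *Sp*G. The clean share of target-edited reads differed by 17.7 percentage points, with the opposite signs in every pair. At single adenines the difference was -1.73 for A1G, -2.75 for A13G and -0.706 for A18G. Samples of the deaminases overlapped for A1G in *Sp*G and for A18G in *Sp*Cas. The exact permutation p was 0.005 for bystander editing, the clean share and A13G (adjusted p = 0.0167) and 0.01 for A1G and A18G (adjusted p = 0.02). For target editing the value was -0.319 (exact permutation p = 0.985).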

How the results depend on the processing

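Target editing, bystander editing, indels, the clean share, cytosine changes and the 5 single adenines kept their direction under every alternative that gave a difference other than 0, and no exact test could pass 0.05. With reads pooled over samples the difference in target editing was 7.86 percentage points in place of 10.6. With alleles of at least 0.2% of reads, bystander editing of *Sp*Cas-ABE8e over the controls fell to 0.218 percentage points (exact permutation p = 1), no indel was left in the *Sp*Cas-ABE8e samples, and A20G was left in no sample. Leaving out 1 sample gave differences of 8.70 to 13.1 for target editing, -3.29 to -2.61 for bystander editing, 9.88 to 11.5 for the clean share, -0.643 to -0.490 for cytosine changes and -0.537 to -0.0283 for indels.

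The difference in gain against *Sp*G ran from -3.64 to 3.48 and turned positive without *Sp*Cas-ABE8e replicate 1 or 3, *Sp*Cas-ABEmax replicate 1, *Sp*G-ABE8e replicate 3 or *Sp*G-ABEmax replicate 2. Against exon 8 it ran from -3.53 to 0.818 and turned positive without *Sp*Cas-ABEmax replicate 1. In log odds the difference in gain against exon 8 was -0.435 (exact permutation p = 0.355).

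Counts of window positions that do not overlap moved most. *Sp*Cas-ABE8e against *Sp*Cas-ABEmax gave 4 positions, 7 with substituted bases only and 4 to 37 when 1 sample was left out. *Sp*Cas-ABE8e against the controls gave 29 positions, 10 with substituted bases only, 5 with reads without an indel, 2 with alleles of at least 2 reads and 17 without primer-derived reads (an alternative chosen after seeing the data). *Sp*Cas-ABEmax against the controls gave 13 positions, 8 with substituted bases only, 8 with reads without an indel, 4 with alleles of at least 2 reads and 13 to 40 when 1 sample was left out. Both highest counts came without *Sp*Cas-ABEmax replicate 2, the sample of 599 reads. The cause was not tested.

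The labels give the groups the same replicate numbers but no shared culture or day. Deviations of same-numbered samples correlated from -0.950 to 0.956 over window positions. Samples of the editors spread far more at position 5 (s.d. 3.28% and 4.33%) than at other positions. The correlations between the editors therefore largely follow that position and cannot decide whether samples were paired. With no shared culture or day in the labels, the numbers were not taken as pairs. As a replicate block, the differences of same-numbered samples gave 10.6 percentage points for target editing and -3.05 for bystander editing (exact sign-flip p = 0.25 each, the smallest that 3 pairs allow). With the 2 closest samples of each editor averaged and counted once, an alternative also chosen after seeing the data, the differences were 10.2 for target editing and -3.21 for bystander editing (exact permutation p = 0.333 each). These pairs, *Sp*Cas-ABE8e replicates 1 and 3 and *Sp*Cas-ABEmax replicates 2 and 3, did not differ beyond sampling noise over alleles (chi-square p = 0.459 and 0.202) and shared 1 and 0 indel alleles.

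Depth limits the rare changes, since 599 to 3644 reads put a count of 0 at up to 0.0823% to 0.501% of reads.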
